A study of Mus musculus with 6 samples.

Results

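The regions described here are long stretches of mouse chromosomes 1 to 19 in which no gene-assigned enrichment of methylated DNA was listed. They were taken from a table that lists regions along the chromosomes, not all of them touching, with a read count per library. A region was kept if the table gave it no gene name and if it was at least 100000 bp wide. This gave 2438 of 213957 distinct regions, or 1.14%. They cover 377.6 Mb, which is 15.985% of the 2362 Mb of autosomal sequence in the table. A further 491 such regions on the X chromosome were outside the rule. The data come from ventricles of male C57BL/6 mice at postnatal day 1 (P1) and postnatal day 14 (P14), with 3 libraries at each age and no treatment or genetic change in either group. The labels name the tissue as left ventricle, and the tissue protocol as ventricles with the septum left in place and the atria removed before snap-freezing. The labels call the 3 libraries of an age biological replicates, and how many animals went into each is not given in the sources used here. Each library holds DNA that was sheared, bound to a methyl-CpG binding domain protein with the MethylMiner kit and sequenced (MBD-seq). Captured DNA carries no cell type markers, so the labelled tissue was not checked against any, and the libraries mix all cell types of the ventricle.

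Most CpG dinucleotides in mammalian DNA are methylated, and most of the genome is poor in CpG. A methyl-CpG binding domain holds fragments that carry several methylated CpGs and lets fragments with few pass, so CpG-poor sequence gives few reads whether or not its CpGs are methylated. Gene deserts, very long neuronal genes and clusters of receptor genes are the best known CpG-poor domains of mouse chromosomes. In the days after birth, mouse heart muscle cells stop dividing and enlarge.

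Promoter windows inside 5 of the long stretches show how far their CpG content ranges. The 250 bases before the start of each gene are given as RefSeq lists them for GRCm38.p6, 5′ to 3′ on the strand of the gene, in lower case with every CG in capitals. Nox4 and Col4a1 are shown as CpG-rich promoters, and Duxf3, Vmn1r73 and Vmn2r36 as CpG-poor ones, and all 5 genes are described with their values further on.
Nox4, chr7:87246399-87246648 (+): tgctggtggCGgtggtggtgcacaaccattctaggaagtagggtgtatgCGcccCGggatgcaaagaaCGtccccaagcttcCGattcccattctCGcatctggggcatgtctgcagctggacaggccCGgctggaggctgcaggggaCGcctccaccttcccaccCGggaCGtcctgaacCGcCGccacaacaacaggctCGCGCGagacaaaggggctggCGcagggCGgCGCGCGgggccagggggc
Col4a1, chr8:11312827-11313076 (-): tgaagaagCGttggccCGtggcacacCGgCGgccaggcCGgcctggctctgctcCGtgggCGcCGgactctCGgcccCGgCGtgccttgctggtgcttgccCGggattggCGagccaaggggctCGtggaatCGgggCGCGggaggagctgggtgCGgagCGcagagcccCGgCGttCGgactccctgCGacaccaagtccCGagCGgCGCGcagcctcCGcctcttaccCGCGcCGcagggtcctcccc
Duxf3, chr10:58233090-58233339 (-): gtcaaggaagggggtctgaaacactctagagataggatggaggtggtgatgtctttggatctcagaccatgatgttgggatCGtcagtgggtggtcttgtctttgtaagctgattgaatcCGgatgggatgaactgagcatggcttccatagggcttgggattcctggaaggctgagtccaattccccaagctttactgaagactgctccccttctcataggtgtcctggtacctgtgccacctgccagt
Vmn1r73, chr7:11756007-11756256 (+): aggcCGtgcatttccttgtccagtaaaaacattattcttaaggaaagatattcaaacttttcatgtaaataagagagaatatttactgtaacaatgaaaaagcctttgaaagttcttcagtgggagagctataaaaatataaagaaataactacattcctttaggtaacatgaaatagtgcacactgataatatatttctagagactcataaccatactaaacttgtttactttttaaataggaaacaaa
Vmn2r36, chr7:7902463-7902712 (-): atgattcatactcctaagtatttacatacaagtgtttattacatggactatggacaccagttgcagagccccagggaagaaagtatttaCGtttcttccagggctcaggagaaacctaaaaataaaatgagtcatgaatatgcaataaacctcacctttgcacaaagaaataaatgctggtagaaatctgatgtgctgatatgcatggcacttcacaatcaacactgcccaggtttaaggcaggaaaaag
The Nox4 run holds 20 CG with a GC content of 67.2%, and the Col4a1 run holds 31 CG with a GC content of 74.4%. Duxf3 has 2 CG, and Vmn1r73 and Vmn2r36 have 1 CG each. The printed Vmn1r73 bases have a GC content of 28.8%.

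Library totals over all distinct regions ranged from 17532547 to 18505983 reads at P1, against from 16284216 to 21512072 at P14. The median interior long stretch held 662 to 745 reads per P1 library and 323 to 618 per P14 library. P14 replicate 1 stood apart from the other libraries in the share, density and ratio of the long stretches. The share, the ratio to shorter regions and the fit over all regions are given with and without it. Means by width, chromosome and promoter class include it, as do most values of gene lists and single stretches, so their P14 over P1 ratios lean on it. Of the 2438 stretches, 30 are the table's first or last region of a chromosome, and 11 of these begin at base 1 and run past 3 Mb, where the assembly holds a placeholder in place of sequence. The 2408 others are called interior here. They cover 341.3 Mb, or 14.4% of the tabled autosomal sequence.

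Long stretches took a smaller share of the captured reads at P14 than at P1 in every library. They held 10.499%, 9.85% and 9.84% of library reads in P1 replicates 1 to 3. They held 4.41%, 8.09% and 8.90% in P14 replicates 1 to 3. The ages did not overlap, with P14 replicate 1 lowest by a wide margin. The mean share was 10.1% ± 0.378 (SD, n = 3) at P1, against 7.13% ± 2.40 (SD, n = 3) at P14, a difference of -2.93 percentage points with an exact two-sided permutation p of 0.1, the smallest that 3 libraries against 3 allow. With P14 replicate 1 left out, the P14 mean came to 8.50% and the difference to -1.565 points. The Wilson 95% interval of a library's share reached at most 0.014 points to either side, which covers counting error only. Relative to their part of the tabled sequence of the autosomes, X and Y together, the stretches took 0.672 of an even share of reads at P1, against 0.476 at P14. That part includes the chromosome starts where the assembly holds a placeholder in place of sequence. The rule takes wide regions that lie between short dense ones, so a low density at both ages is partly built into the choice. The difference between the ages was not part of the rule. Whether the dense regions had been called on these libraries singly or pooled is not given in the sources used here.

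Read density tells the same comparison per length. Over all 2438 stretches there were 5.15, 4.57 and 4.72 reads per kb in the P1 libraries and 2.51, 4.29 and 3.84 in the P14 libraries. Among interior stretches the median was 5.55, 4.86 and 5.05 reads per kb at P1 and 2.24, 4.42 and 4.001 at P14. Densities below are reads per kb per 1000000 reads of the library, so that libraries of different depth can be set side by side. On that scale interior stretches had 0.288 ± 0.0114 (SD, n = 3) at P1, against 0.204 ± 0.0673 (SD, n = 3) at P14.

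A further ratio set the long stretches against other unnamed regions of the same library, those of 10 to 50 kb. It was 0.674, 0.637 and 0.632 in the P1 libraries and 0.334, 0.542 and 0.595 in the P14 libraries. Even the P14 library with the highest ratio lay below the P1 library with the lowest. The mean ratio was 0.648 ± 0.0231 at P1 and 0.490 ± 0.138 at P14 (SD, n = 3 each), a difference of -0.158 with an exact two-sided permutation p of 0.1. Without P14 replicate 1 the difference was -0.0797. Relative to its mean, density also varied more from stretch to stretch at P14. The measure is the SD divided by the mean, so a lower mean alone raises it. The coefficient of variation of density over interior stretches was 0.302, 0.326 and 0.318 in the P1 libraries and 0.717, 0.4001 and 0.391 in the P14 libraries, with a difference in means of 0.188 and an exact two-sided permutation p of 0.1. Without P14 replicate 1 the difference was 0.0807. This comparison of variation was added after the data had been seen.

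**Figure D1:**
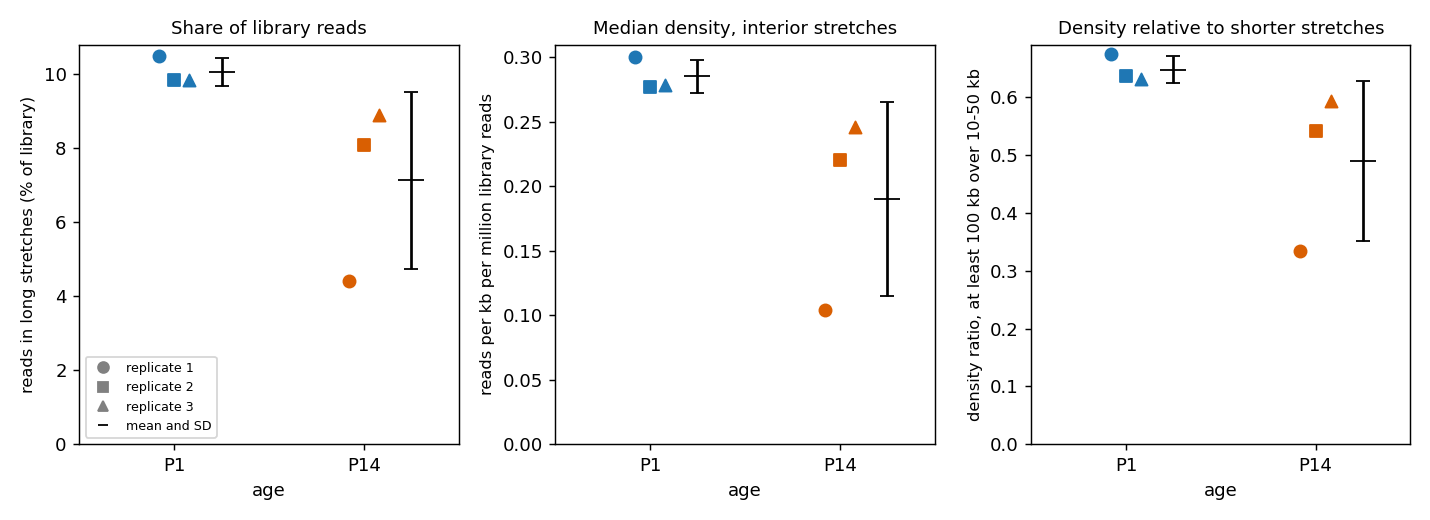
Each point is 1 library, coloured by age and shaped by replicate number, with the mean and SD of 3 libraries in black. The panels plot the percent of library reads in all 2438 long stretches, the median density of interior stretches in reads per kb scaled to depth, and the density relative to unnamed regions of 10 to 50 kb. All P14 points lie below all P1 points in the 3 panels, and P14 replicate 1 is lowest, at 4.41% of reads.

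The wider the region, the lower was its mean density at both ages, and the further P14 lay below P1. Chromosome-end regions were left out of these width classes. The 1707 stretches of 100 to 150 kb had a density of 0.299 ± 0.011 at P1 and 0.217 ± 0.0665 at P14 (SD, n = 3 each), a P14 over P1 ratio of 0.726. The 471 stretches of 150 to 200 kb had 0.277 at P1 and 0.190 at P14, a ratio of 0.685. The 230 stretches of 200 kb or more had 0.265 at P1 and 0.178 at P14, a ratio of 0.673. Shorter unnamed regions showed smaller gaps or the opposite direction, with ratios of 0.792 at 50 to 100 kb, 0.926 at 10 to 50 kb, 1.08 at 2 to 10 kb and 1.603 under 2 kb. Every listed region had a mean of at least 10 reads per library, so narrow regions with fewer reads are absent from these classes. In the widest class the libraries read 0.280, 0.257 and 0.257 at P1 and 0.101, 0.206 and 0.228 at P14. Each of the 3 classes of long stretches had an exact permutation p of 0.1, and the order of the classes itself was not tested.

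**Figure D2:**
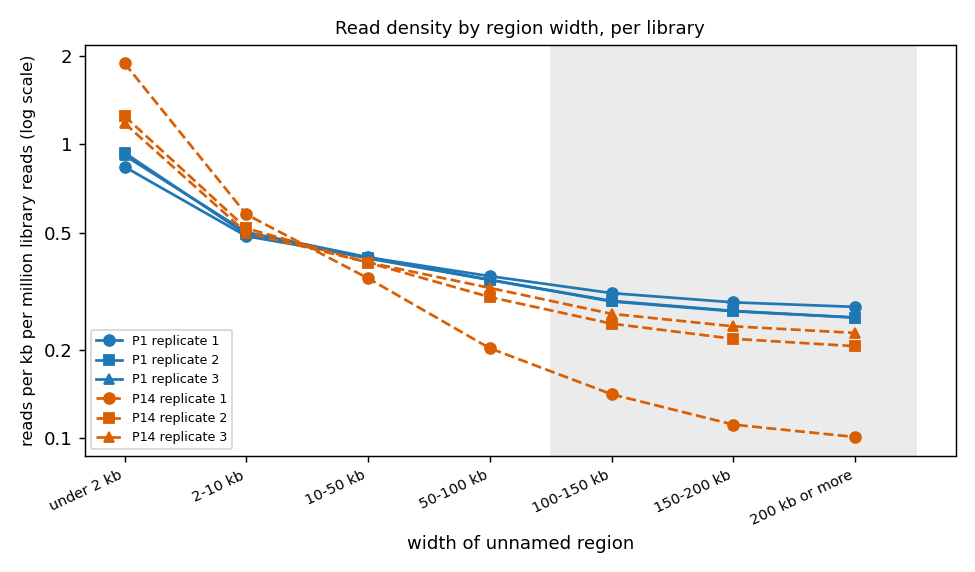
Lines give the density of unnamed autosomal regions, in reads per kb scaled to depth on a log axis, for 7 classes of width in each of the 6 libraries. The shaded classes are the long stretches. From the narrowest to the widest class the mean goes from 0.897 to 0.265 at P1 and from 1.44 to 0.178 at P14.

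Tested stretch by stretch, no long stretch passed the threshold. The quasi-likelihood test of edgeR over all 209063 regions that passed its filter on low counts, all 2438 long stretches among them, called 0 long stretches at an adjusted p under 0.05 and 0% of all regions. The lowest adjusted p of a long stretch was 0.214. At an unadjusted p under 0.05, 1304 long stretches were lower at P14, or 53.5%, beside 10.3% of all regions tested, and 1 was higher, beside 12.7% of all regions. DESeq2 and limma-voom also called 0 long stretches after adjustment, and DESeq2 called 82 other regions higher and 1 lower. At an unadjusted p under 0.05 in either direction DESeq2 gave 1899 long stretches, or 77.9%, beside 19.3% of all regions, and limma-voom 2010, or 82.4%, beside 25%. The log2 difference of P14 from P1 had a median of -0.75 over the long stretches and 0.12 over all regions, and was negative in 2428 and positive in 10 stretches. In counts scaled by library size and TMM factor, every P14 library lay below every P1 library for 2283 stretches, or 93.6%, beside 18.8% of all regions. The factors ran from 0.890 to 0.942 at P1 and from 1.006 to 1.219 at P14, which lowers the P14 values. By library totals alone the count was 1940, or 79.6%, beside 10.3% of all distinct regions. Without P14 replicate 1 the same test called 634 long stretches, all lower at P14, or 26% of them beside 0.847% of all regions, and the median log2 difference was -0.41.

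A scaling taken from regions without a gene name alone gave smaller differences in the same direction. This fit covered 103591 unnamed regions of 2 kb or more, and it too called 0 long stretches and 0% of the regions, with a lowest adjusted p of 0.421 by edgeR's quasi-likelihood test. At an unadjusted p under 0.05, 567 long stretches were lower at P14, or 23.3%, beside 5.77% of the regions in the fit, and 1 was higher, beside 5.39%. The median log2 difference was -0.48 for long stretches and 0.02 for all regions of the fit, and 2347 stretches were negative and 91 positive. At an unadjusted p under 0.05 in either direction DESeq2 gave 996 long stretches, or 40.9%, beside 10.8% of the regions in the fit, and limma-voom 1220, or 50.04%, beside 13.7%, with 0 long stretches after adjustment in both. In counts scaled by the library sizes and TMM factors of this fit, every P14 library was below every P1 library for 1630 stretches, or 66.9%, beside 12.7% of its regions. Every P14 library was above for 14 stretches, or 0.574%, beside 10.6%.

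Most interior stretches lay in a narrow band of density. The middle of the distribution, as the mean of both ages, was 0.237, and the 5th and 95th percentiles were 0.159 and 0.404. Between 0.2 and 0.25 there were 887 stretches, between 0.25 and 0.3 there were 521, and between 0.15 and 0.2 there were 379. The median P14 over P1 ratio was 0.681, with percentiles of 0.576 and 0.913, and it was 0.831 without P14 replicate 1. In reads divided by library totals alone, every P14 library lay below every P1 library in 1935 interior stretches, or 80.4%, and above in 5. Over all 2438 stretches these counts were 1940 and 6, beside 10.3% and 26.9% of all distinct regions. A ratio above 1 was found in 33 interior stretches, 16 of them with hardly any reads at either age.

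**Figure D3:**
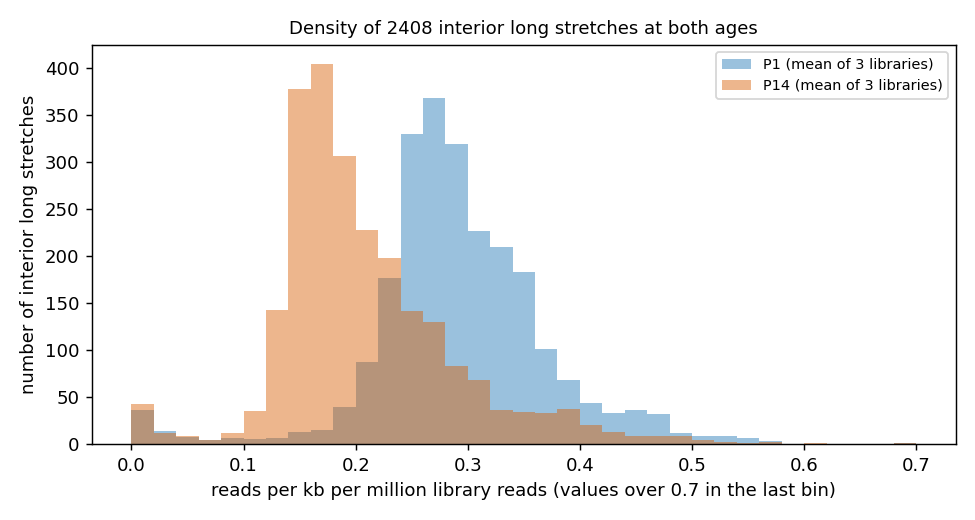
Bars count interior long stretches by density, in reads per kb scaled to depth averaged over 3 libraries, for P1 in blue and P14 in orange. The P14 distribution sits to the left of P1, with medians of 0.190 and 0.284, and both have a small group of stretches near 0.

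Long stretches were present on all 19 autosomes and unevenly shared among them. Interior stretches made up 18.6% of the tabled sequence of chromosome 14, 18.5% of chromosome 3, 17.1% of chromosome 12, 17.0% of chromosome 1 and 16.8% of chromosome 4, beside 10.1% of chromosome 11 and 10.9% of chromosome 19. That sequence includes placeholder starts on chromosomes 1, 3 and 4. With first and last regions left out of it, chromosome 3 stood at 18.9%, chromosome 14 at 18.7%, chromosome 1 at 17.3% and chromosomes 12 and 4 at 17.1% each. Chromosomes 11 and 19 have the largest part of their tabled sequence inside protein-coding genes, at 47.003% and 47.9%, and chromosome 3 the smallest, at 32.3%. Chromosome 13 has the next smallest, at 34.5%, yet interior stretches made up only 11.1% of it. The P14 over P1 density ratio of interior stretches was lowest on chromosome 5, at 0.686, and highest on chromosome 11, at 0.769, so all 19 chromosomes had lower means at P14.

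Stretches also followed one another. When stretches no more than 10 kb apart were joined, 477 of the 2408 fell into 226 blocks of 2 or more. The largest blocks held 4 stretches each. A block on chromosome 4 from 36872546 to 37600766 takes in part of Lingo2, a neuronal leucine-rich repeat membrane protein, and a block on chromosome 3 from 114737153 to 115308041 holds Olfm3, an olfactomedin of neural tissue. The other blocks of 4 lie on chromosome 4 from 67941905 to 68634064 and on chromosome 17 from 76635601 to 77232195, and neither overlaps a protein-coding gene. Of 484 windows of 5 Mb, 63 held no interior stretch and 3 were filled to 50% or more. These 3 were the Lingo2 window on chromosome 4, at 51.5%, a window on chromosome 15 from 15000001 to 20000000 with the cadherin genes Cdh9 and Cdh10 as its only protein-coding genes, at 50.5%, and a window on chromosome 18 from 25000001 to 30000000 that holds Celf4 and Fhod3, at 50.4%.

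Gene content was low but far from absent. RefSeq gene spans covered 35.4% of the interior stretches, beside 48.8% of the tabled autosomal sequence, and protein-coding spans covered 27.3%, beside 40.6%. No gene span of any kind overlapped 582 stretches, while 367 lay wholly inside protein-coding genes. The gene-free stretches had a density of 0.274 ± 0.0136 at P1 and 0.181 ± 0.0729 at P14 (SD, n = 3 each), and the stretches inside protein-coding genes 0.319 ± 0.0107 and 0.229 ± 0.0747. The ratio of the latter density to the former was 1.14, 1.17 and 1.17 in the P1 libraries and 1.46, 1.24 and 1.21 in the P14 libraries. All P14 values lay above all P1 values, with a difference in means of 0.138 and an exact two-sided permutation p of 0.1, and the P14 mean was 1.22 without replicate 1, which brought the difference to 0.0571. This comparison was added after the data had been seen.

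By number of genes, 3875 of 46714 autosomal RefSeq genes, or 8.29%, had their midpoint in an interior stretch, and 1383 of 20560 protein-coding genes, or 6.73%. Clusters of chemosensory receptor genes (olfactory, vomeronasal, taste and trace amine receptors) had 465 of 1831 genes there, or 25.4%. Clustered families of secreted, immune and detoxification proteins had 127 of 433, or 29.3%. Ion channel and neurotransmitter receptor genes had 22 of 178, and genes of neuronal adhesion and guidance 11 of 93. Predicted genes and cDNA clones had 2047 of 22316, or 9.17%, microRNA genes 55 of 1108 and Zfp zinc finger genes 23 of 406, or 5.67%. No test was made on these shares, since the genes of a cluster share their stretches.

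**Figure D4:**
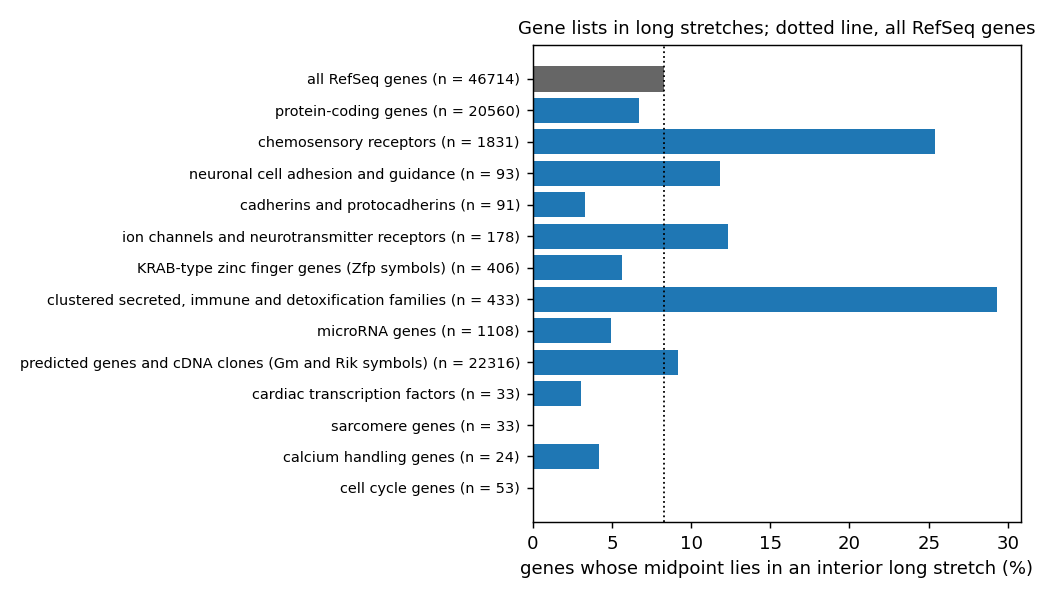
Bars give the percent of genes in each list whose midpoint lies in an interior long stretch, with the number of autosomal genes in brackets. The dotted line marks all RefSeq genes, at 8.29%, and the receptor and secreted clusters reach 25.4% and 29.3%, while sarcomere and cell cycle genes are at 0.

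The genes that lent most sequence to the stretches were very long genes best known from the nervous system. Ptprd, a receptor tyrosine phosphatase of synapses, overlapped 7 stretches over 1166476 bp, or 51.4% of its length. Dlg2, a scaffold protein of synapses, overlapped 5 over 1162933 bp. Lrp1b, a large LDL receptor relative, and Cntnap2, a neurexin relative, overlapped 7 each. The density in the Ptprd stretches was 0.324, 0.302 and 0.294 at P1 and 0.0895, 0.229 and 0.257 at P14. The density in the Dlg2 stretches was 0.326, 0.313 and 0.310 at P1 and 0.111, 0.238 and 0.282 at P14. In both genes all P14 libraries were below all P1 libraries, and P14 replicate 1 was under 0.12. Rbfox1, a splicing regulator of neurons and muscle, had a smaller gap over its 4 stretches, from a mean of 0.357 ± 0.00786 at P1 to 0.311 ± 0.0627 at P14 (SD, n = 3 each), and there P14 replicate 3 at 0.362 lay within the P1 range.

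Among receptor clusters, 95 stretches held at least part of a chemosensory receptor gene. Their median density was 0.229 at P1 and 0.143 at P14, a median ratio of 0.637, beside 0.681 over all interior stretches. In 78 of the 95, or 82.1%, every P14 library was below every P1 library, beside 80.4% of all interior stretches. The stretch that holds Olfr1000, an olfactory receptor, had 969, 751 and 775 reads at P1, against 291, 683 and 590 at P14. The stretch that holds Tas2r102, a bitter taste receptor, had 366, 332 and 369 reads at P1, against 125, 299 and 264 at P14. The 51 stretches with genes of the secreted, immune and detoxification families had medians of 0.223 and 0.149, a median ratio of 0.696. In 36 of the 51, or 70.6%, every P14 library was below every P1 library, beside 80.4% of all interior stretches. Klra1, a natural killer cell receptor, lies in a stretch with 962, 819 and 832 reads at P1, against 286, 687 and 599 at P14. Ifna1, a type I interferon, lies in a stretch with 1001, 778 and 865 reads at P1, against 627, 905 and 726 at P14, a ratio of 0.813.

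The 57 stretches that hold ion channel or neurotransmitter receptor genes had median densities of 0.310 and 0.205, and 49 of them, or 86.0%, had every P14 library below every P1 library. Kcnd2 encodes a channel of the transient outward potassium current in rodent heart muscle, and its 3 stretches had 2555, 2234 and 2306 reads at P1, against 923, 2034 and 1788 at P14. Kcnj3 encodes a subunit of the acetylcholine-gated potassium channel, and its stretch had 783, 651 and 691 reads at P1, against 271, 605 and 527 at P14. Cadherin and protocadherin genes touched 21 stretches, among them those of Cdh9 and Cdh10, and every P14 library was below every P1 library in all 21, beside 80.4% of all interior stretches. Cdh9, a classical cadherin, lies whole in 1 stretch with a density of 0.314 ± 0.0353 at P1 and 0.191 ± 0.0758 at P14 (SD, n = 3 each).

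Of 46714 RefSeq genes of all kinds 4443, or 9.51%, overlapped a long stretch. None of 53 cell cycle genes did, and of 33 sarcomere genes 2 did in part, or 6.06%, Nebl and Ldb3, whose proteins both sit at the Z-disc. Of 33 cardiac transcription factor genes 3 overlapped one, or 9.09%, and of 24 calcium handling genes 4, or 16.7%. The lists were not tested against all genes. The stretch in Meis2, a homeobox factor, had the densities 0.409 and 0.331, and the stretch in Zfpm2, which encodes a partner of GATA factors, had 0.383 and 0.286.

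Among the heart lists, Trdn had the lowest P14 over P1 ratio. Trdn encodes triadin, which anchors calsequestrin at the calcium release channel, and part of it lies in a stretch on chromosome 10 from 33072044 to 33178452. This stretch had 677, 550 and 481 reads at P1, against 150, 417 and 353 at P14, a density of 0.296 ± 0.0471 and 0.155 ± 0.0776 (SD, n = 3 each) and a ratio of 0.523. Ryr3, a calcium release channel, and Jph1, a junctophilin, reach into their stretches by 11714 and 5737 bp, and had ratios of 0.841 and 0.669. The 7 stretches of the genes named from these heart lists all had every P14 library below every P1 library in reads divided by library totals, beside 80.4% of all interior stretches, and none passed the adjusted test.

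Several genes of growth factor signalling and of the matrix were looked at after their values had been seen. Erbb4, the neuregulin receptor of heart muscle, overlaps 3 long stretches, with P14 over P1 ratios of 0.650, 0.605 and 0.590. Nrg3, a neuregulin, overlaps 4, with ratios from 0.613 to 0.656. Sgcz, a sarcoglycan, overlaps 4, with ratios from 0.587 to 0.672. Col4a1, a collagen of basement membranes whose CpG-rich promoter is printed above, lies with 72742 bp of its length in a stretch on chromosome 8 from 11240148 to 11368004. The stretch had 1235, 1265 and 1369 reads at P1, against 1469, 1287 and 898 at P14, densities of 0.559 ± 0.035 and 0.489 ± 0.0527 (SD, n = 3 each), and the ages overlapped.

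The widest interior stretches fell in gene deserts, in a few large genes and in nearly empty gene clusters. Of the 10 widest, 7 had a lower mean density at P14, with P14 over P1 ratios from 0.602 to 0.668. The other 3 had higher means, with ratios of 1.88 for the Duxf3 stretch, 1.32 for the chromosome 5 stretch with Gm21149 and 1.02 for the Mup22 stretch, and their reads are given further on. The widest of all runs 473461 bp on chromosome 6 from 110010657 to 110484117 without a protein-coding gene. It had 2347, 2011 and 2129 reads at P1, against 753, 1679 and 1658 at P14. A stretch of 412852 bp on chromosome 16 holds part of Fgf12, a fibroblast growth factor homologous factor that binds sodium channels, with 2393, 2073 and 2099 reads at P1, against 927, 1763 and 1698 at P14. A stretch of 407138 bp on chromosome 10 lies wholly in Grik2, a kainate receptor, with 2279, 1775 and 1871 reads at P1, against 564, 1583 and 1500 at P14. Nox4, an NADPH oxidase of heart and vessel cells, shares a stretch of 390583 bp on chromosome 7 with the vomeronasal receptor gene Vmn2r79, with 1949, 1608 and 1811 reads at P1, against 652, 1577 and 1417 at P14. In these 4 stretches all P14 counts were below all P1 counts, and the ratios of density ran from 0.602 to 0.660. Their edgeR adjusted p lay between 0.215 and 0.231 in the fit over all regions.

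The smallest unadjusted p values for a lower value at P14 marked vomeronasal clusters, a chromosome end and a gene desert. Vmn1r73, a pheromone receptor gene, lies in a stretch of 102816 bp on chromosome 7 from 11693099 to 11795914, with 429, 371 and 378 reads at P1, against 174, 289 and 248 at P14. Its log2 difference was -0.99 (SE 0.289, edgeR adjusted p 0.214) in the fit over all regions and -0.71 (SE 0.203, edgeR adjusted p 0.421) in the fit over unnamed regions. A gene-free stretch on chromosome 8 from 74576606 to 74705483 had 634, 532 and 546 reads at P1, against 279, 414 and 401 at P14. The last region of chromosome 2 had 117, 102 and 106 reads at P1, against 50, 67 and 77 at P14. In all 3 the ages did not overlap.

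A small group of stretches was nearly empty. Of the interior stretches, 72 had a mean density under 0.1, and 57 of them under 0.05. Chromosome 7 held 19 of the 72, chromosome 14 held 15, chromosome 4 held 7, and chromosomes 3 and 8 held 6 each. Vomeronasal receptor genes of the Vmn1r and Vmn2r families overlapped 13 of the 72, or 18.1%, and 39 of all 2408 interior stretches, or 1.62%. Both stretches with major urinary protein (Mup) genes and 3 of 5 with defensin genes were nearly empty. For the Skint, Speer and Obox gene families the counts were 0 of 9, 1 of 5 and 1 of 3. A predicted gene with a Gm symbol overlapped 58 of the 72, beside 1213 of 2408, and only 2 of the 72 were free of any gene span. Their summed density was 0.0297 ± 0.000604 at P1 and 0.0240 ± 0.0051 at P14 (SD, n = 3 each).

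The printed Vmn2r36 promoter comes from this group. Its stretch of 269071 bp on chromosome 7, from 7812054 to 8081124, had 20, 16 and 20 reads at P1, against 7, 8 and 9 at P14. Another, with Vmn2r39 and Vmn2r40, had 24, 12 and 11 reads at P1, against 2, 9 and 8 at P14. The stretch of Mup22 on chromosome 4 had 9, 20 and 5 reads at P1, against 12, 14 and 11 at P14 over 392752 bp, with no separation of the ages. On chromosome 5 a stretch of 438617 bp with the predicted gene Gm21149 had 16, 16 and 17 reads at P1, against 23, 28 and 18 at P14. These families have near-identical copies, and the handling of reads that match several places is not given in the sources used here. Unsequenced gaps, absent mapping and low capture cannot be told apart in these counts, because no genome sequence was used.

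The regions at chromosome ends were a case of their own. Of the 30, 28 had a mean density under 0.1, and 6 of the 11 that begin at base 1 had under 200 reads in every library. The last region of chromosome 3 was denser, at 0.164 at P1 and 0.0972 at P14, and so was the start of chromosome 9, with 34723, 38005 and 33794 reads at P1, against 7391, 28059 and 38090 at P14 over 3089271 bp. The P14 libraries spanned the P1 range there, with replicate 1 far below and replicate 3 just above. The start of chromosome 4 had 1096, 1590 and 1417 reads at P1, against 2199, 1427 and 1543 at P14, and the ages overlapped. Leaving out all 30 changed the difference in the share of reads from -2.93 to -2.86 points.

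The Duxf3 stretch went against most others, and it is 1 of the 5 interior stretches with every P14 library above every P1 library in reads divided by library totals. It runs 415760 bp on chromosome 10 from 57853931 to 58269690 and holds Duxf3, a double homeobox gene of a tandem array whose relatives switch on early embryonic genes, and Gcc2, a Golgi coiled-coil protein. It had 825, 803 and 603 reads at P1, against 2471, 1181 and 950 at P14, so every P14 library was above every P1 library. The density was 0.0992 ± 0.0166 at P1 and 0.186 ± 0.0781 at P14 (SD, n = 3 each), or 1.88-fold. The log2 difference was 0.64 (SE 0.277, edgeR adjusted p 0.214) in the fit over all regions and 1.02 (SE 0.286, edgeR adjusted p 0.421) in the fit over unnamed regions. In each fit it was the 1 long stretch with an unadjusted p under 0.05 for a higher value at P14. How reads that match several places of the array were treated is not given in the sources used here. Without P14 replicate 1 the log2 differences were 0.37 and 0.56 in the same order, with edgeR adjusted p of 0.123 and 0.181. Without replicate 1 of both ages its edgeR adjusted p was 0.0107 and 9.85e-05 in the same order, with log2 differences of 0.45 and 0.63. Only 3 CG lie in the whole Duxf3 promoter window of 300 bases, 2 of them in the printed part.

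The 5 densest stretches had P14 over P1 ratios from 0.928 to 1.139. The densest of all lies on chromosome 11 from 3105821 to 3225343 and holds Sfi1, a centrin-binding protein of the spindle pole, and Eif4enif1, which carries eIF4E into the nucleus. It had 5054, 5177 and 4924 reads at P1, against 6067, 5783 and 6291 at P14, a density of 2.34 ± 0.11 and 2.67 ± 0.488 (SD, n = 3 each). This is above the mean of unnamed regions under 2 kb, at 0.897 and 1.44, so the name peak-free stretch does not describe it well. How reads that match several places were treated is not given for this stretch either. The next densest, on chromosome 18 from 38794711 to 38919194, lies in Arhgap26 and Fgf1, a fibroblast growth factor, with 0.574 at P1 and 0.603 at P14. Kcnj15, a potassium channel, overlaps a stretch at 0.562 at both ages, and a stretch with Slc12a1, Dut and part of the fibrillin gene Fbn1 had 0.565 at P1 and 0.524 at P14. None of the 5 passed a test, and their edgeR unadjusted p values lay at 0.171 or above in the fit over all regions.

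**Figure D5:**
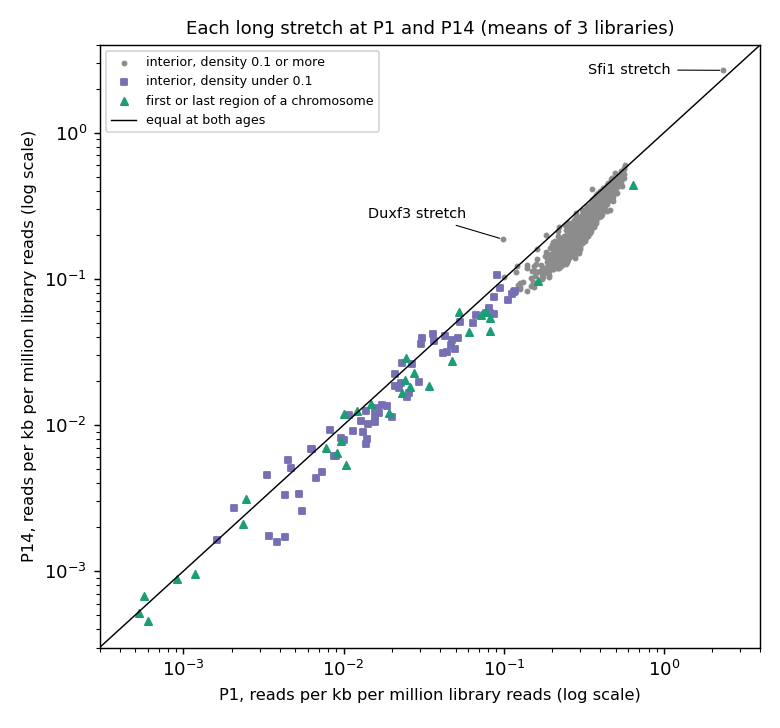
Each point is 1 of the 2438 long stretches, with density at P1 on the x axis and at P14 on the y axis, in reads per kb scaled to depth, as means of 3 libraries on log axes. Most interior stretches lie below the line of equality, the 72 nearly empty stretches and the chromosome-end regions trail to the lower left, and the Duxf3 and Sfi1 stretches lie above it.

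Promoters in the long stretches were poor in CpG. RefSeq windows from 250 bases before to 50 bases after a gene start were available for 31396 autosomal starts, and 1967 of them, or 6.27%, lay in interior stretches. These windows held a median of 2 CG, with quartiles of 1 and 8, beside a median of 8 elsewhere, with quartiles of 3 and 21. CG dinucleotides were searched in these letters alone, where both strands give the same count. No CG at all was found in 15.8% of the windows inside, beside 4.54% elsewhere, and at least 10 CG in 22.6%, beside 45.4% elsewhere and 44.0% of all windows. For protein-coding genes alone the shares with at least 10 CG were 28.4% and 59.9%. In the 72 nearly empty stretches 11.5% of 174 windows had at least 10 CG.

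Stretches that hold a CpG-rich promoter had more reads and a smaller gap between the ages. The 268 interior stretches with at least 1 window of 10 or more CG had a density of 0.340 ± 0.00878 at P1 and 0.270 ± 0.0589 at P14 (SD, n = 3 each), a ratio of 0.794. The 1525 without any promoter window had 0.287 ± 0.013 and 0.196 ± 0.0722, a ratio of 0.684. The 615 with CpG-poor windows only had 0.270 ± 0.00868 and 0.196 ± 0.0595, a ratio of 0.726. The Nox4 stretch, with its 24 CG in the promoter window, was nevertheless at 0.253 and 0.167. These classes are a description, and their differences were not tested.

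The regions that border the long stretches behaved in the opposite way to them. A listed region touched both sides in only 309 of the 2408 interior stretches, or 12.8%. Of the regions that share a border with an interior stretch, 1444 in all, 97.4% were under 2000 bp, with a median width of 743 bp, and 40.1% carried a gene name. Their density was 0.905, 0.915 and 0.873 at P1 and 1.87, 1.22 and 1.12 at P14, so each P14 library lay above each P1 library. Interior stretches had 0.333, 0.307 and 0.323 of the density of these neighbours at P1 and 0.068, 0.190 and 0.225 at P14. Neighbours and stretches are counted in the same library totals, so these values are not independent results. Every listed region had a mean of at least 10 reads per library, so short neighbours with fewer reads are absent. Whether that favours either age was not tested.

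The width limit of 100000 bp divides a continuous range. The 3 stretches just inside it, of 100000, 100018 and 100037 bp, had densities of 0.285, 0.202 and 0.337 at P1 and 0.169, 0.132 and 0.230 at P14. The 3 unnamed regions just outside, of 99897, 99931 and 99956 bp, had 0.0466, 0.392 and 0.488 at P1 and 0.0458, 0.365 and 0.392 at P14.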

How the data were processed

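Per the labels' protocols, genomic DNA was sonicated, enriched with the MethylMiner kit and sequenced for 36 cycles on a Genome Analyzer IIx. The deposited table holds counts, whole reads per region made by the authors and not divided by depth or width. Per the submitters' processing notes, the build was GRCm38 (mm10) and the tools were BWA, MACS, bedtools and edgeR 3.2.4, with no role given for each. For peak settings and for duplicate or multiply placed reads the sources used here give nothing. Of 221524 lines, 7567 list a region again under another gene, with the same counts, and were counted once. Mean counts were at least 10 per library in every region.

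Coordinates are printed 1-based. Gene spans and promoter windows came from RefSeq for GRCm38.p6, and 328 spans that begin before 3 Mb were left out because the assembly has a placeholder there and their coordinates may belong to other sequences. No genome was used, so repeats, gaps and CpG density were not measured over the stretches.

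Library shares and ratios were compared by exact two-sided permutation over libraries. Regions were tested with edgeR 4.0.16 (quasi-likelihood, R 4.3.3), using TMM factors, the default filter and age alone in the model, with p adjusted by Benjamini-Hochberg and a threshold of 0.05, over all regions and over unnamed regions of 2 kb or more. DESeq2 1.42.0, limma-voom (limma 3.58.1), other scalings, width limits, left-out libraries and a replicate block were tried as alternatives. The fits were tested on simulated data. Named regions are the 10 widest, the 5 densest and 5 least dense, and the 3 with the smallest p per direction and fit. The genes named are those in these regions and members of the gene lists, with some others chosen after their values were seen. Because the widest and emptiest were mostly chromosome starts, the 10 widest and 5 least dense interior stretches were added after their values were seen. The stretches, lists and tests were chosen with earlier results of these data known. Values of some list genes are not reported here.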

Additional observations from a re-analysis of the deposited data

How the results depend on the processing

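The difference in the share of reads lay between -3.81 and -1.565 percentage points when each library was left out in turn, and the density ratio to shorter stretches differed by between -0.210 and -0.0797. The weakest values were those without P14 replicate 1. The count of long stretches past the adjusted threshold in the fit over all regions ranged from 0 to 634 with 1 library left out, and the 634 came without P14 replicate 1. It was 1174, of which 1173 were lower, without replicate 1 of both ages. These 1173 were 48.1% of the long stretches, beside 2.51% of all regions called lower. In the fit over unnamed regions the count was 0 with any 1 library left out, and it was 1, the Duxf3 stretch, without replicate 1 of both ages. Without P14 replicate 2 the chromosome 5 stretch with Gm21149 reversed from 0.17 to -0.00213 on the log2 scale, and without P14 replicate 1 it was 0.33. Without any scaling factor the median log2 difference was 0.36 over all regions and -0.55 over long stretches. No other scaling, tool, filter or width limit gave a count of called stretches other than 0.

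Libraries with the same replicate number did not vary together, with correlations of deviations of -0.20, -0.13 and -0.056. Deviations from the mean of 3 libraries depend on one another, so these values cannot decide whether the numbers pair the libraries. With a replicate block the fit over all regions had 729 (29.9%, beside 15.3% of all regions) and the fit over unnamed regions 489 (20.1%, beside 7.45%) long stretches at an unadjusted p under 0.05, and both had 0 after adjustment. The sign-flip test of the paired differences gave an exact permutation p of 0.25 for the share, at -2.93 points, and for the ratio, at -0.158. Stretches with under 30 reads in each library are too shallow for an age difference to be read from them.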

Other observations

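With all libraries, microRNA and zinc finger genes lay in stretches with smaller median gaps between the ages than interior stretches as a whole. Without P14 replicate 1 the median ratios were 0.880 for microRNA and 0.847 for zinc finger stretches, beside 0.831 over all interior stretches. The 37 interior stretches that hold microRNA genes had median densities of 0.336 at P1 and 0.242 at P14. Their median P14 over P1 ratio was 0.741, beside 0.681 over all interior stretches. Every P14 library was below every P1 library in 27 of the 37, or 73.0%, beside 80.4% of all interior stretches. Mir30b and Mir30d, of a microRNA family abundant in heart, share a stretch on chromosome 15 with 856, 860 and 856 reads at P1, against 627, 832 and 686 at P14. Mir107, a microRNA with targets in energy metabolism, lies in a stretch with 931, 842 and 839 reads at P1, against 664, 890 and 656 at P14, a ratio of 0.799. The 22 stretches with Zfp zinc finger genes had a median ratio of 0.736, and 13 of them had every P14 library below every P1 library, or 59.1% beside 80.4%. Of these 22, 3 were nearly empty, beside 72 of all 2408. Among the nearly empty stretches only 25% had every P14 library below every P1 library. These differences from other stretches were not tested.

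Stretches with genes of neuronal adhesion and guidance numbered 95, as many as those with chemosensory receptors, and had a median ratio of 0.681, the same as all interior stretches. Every P14 library was below every P1 library in 83 of them, or 87.4%, beside 80.4% of all interior stretches. None of the 95 was nearly empty, whereas 13 of the 95 with chemosensory receptors were.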
